A study of Mus musculus with 37 samples.

Results

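The expression of 9 genes that mark B cells and plasma cells was examined in the upper urinary tract and bladder of mice given the carcinogen BBN. The genes were Ms4a1, Cd79a, Cd79b, Pax5, Mzb1, Ltb, Cd22, Blk and Pou2af1. They were taken by symbol, and all 9 were found among the 24421 gene symbols of the table. RNA-seq was made from 37 libraries of female wild-type (WT) BALB/c mice. BBN, a nitrosamine, was given in the drinking water at 0.05% from 6 to 7 weeks of age, for 18 weeks in the labels and 17 to 20 weeks in the methods. UT is the upper urinary tract on the cancer side in BBN mice (11 libraries from 10 mice, with both ureters of mouse 5), and UN is the noncancer side (7 libraries). U is the ureter of mice on tap water (6 libraries, both ureters of 3 mice). BB is the bladder of the 10 BBN mice and B the bladder of the 3 mice on tap water. UT, UN and BB libraries are numbered by mouse, so UT 7, UN 7 and BB 7 are from mouse 7. UT and UN differ in what was found in each ureter and not in treatment, and both sides of a mouse share its exposure to BBN.

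A B cell binds antigen with a surface immunoglobulin, and the signal passes into the cell through the paired proteins of Cd79a and Cd79b. After activation some B cells become plasma cells, which secrete antibody and lower much of the B cell program, including Pax5, Ms4a1 and Cd22, while Mzb1, Pou2af1 and Jchain remain high. Ltb differs from the other 8 in that T cells and innate lymphoid cells express it as well as B cells. Immunoglobulin chain genes were not analysed here. These are bulk samples, so fewer cells of a type and less RNA per cell cannot be told apart.

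Library totals ranged from 9724542 to 16735797 counts in UT, from 4675081 to 14973904 in UN, from 12980008 to 18793560 in U, from 3557697 to 15104379 in BB and from 14348701 to 16617435 in B. Marker genes of non-immune tissue differed between the groups. The summed level of 12 urothelium genes was 24100 to 25400 CPM (counts scaled to a common library total) in B and 1760 to 12200 CPM in BB, and it was 35.5 CPM in UN 2 against a UN median of 6230 CPM. Adipocyte genes summed to 50100 to 77400 CPM in U, 11600 to 68400 CPM in UN and 118 to 42500 CPM in UT, but to 639 to 2690 CPM in B. Smooth muscle genes summed to 254 to 2670 CPM in UT and 2090 to 3860 CPM in U. Kidney tubule genes summed to 2690 CPM in UT 4 and to at most 12.1 CPM in the other 10 UT libraries. The part of these tissues in the levels below was not tested. The library name of BB 6 carries a T that its title does not, and all values below include it.

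RefSeq gave a promoter window (250 bases before and 50 after the start, GRCm38.p6) for 5 of the 9 genes. Stretches before the RefSeq start that overlap no exon of GENCODE vM21 are shown for 3 of them, because these hold letters known from B cell promoters. The stretch of Cd22 lies within the gene, since other transcripts of Cd22 start further upstream. Capitals mark matches to PU.1 letters (GAGGAA), an E-box (CAGGTG), the NF-kB motif and the EBF motif, each searched on both strands.
Cd79a, chr7:24897251-24897380, plus strand: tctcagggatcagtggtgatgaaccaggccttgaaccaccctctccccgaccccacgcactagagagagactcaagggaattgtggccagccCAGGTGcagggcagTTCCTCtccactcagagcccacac
Ltb, chr17:35194309-35194438, plus strand: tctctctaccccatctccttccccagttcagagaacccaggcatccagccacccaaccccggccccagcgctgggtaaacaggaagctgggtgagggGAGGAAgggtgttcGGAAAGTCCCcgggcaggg
Cd22, chr7:30879029-30879158, minus strand: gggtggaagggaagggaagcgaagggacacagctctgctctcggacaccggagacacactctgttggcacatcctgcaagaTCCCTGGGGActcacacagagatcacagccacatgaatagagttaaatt
The E-box and PU.1 letters of Cd79a begin 154 and 140 bases before its RefSeq start, the PU.1 and NF-kB matches of Ltb 101 and 87 bases before, and the EBF match of Cd22 49 bases before. Over all 32851 promoter windows, the EBF motif was found in 0.904%, the NF-kB motif in 0.411%, PU.1 letters in 28.3% and the E-box in 20.2%. Of the windows of the 5 genes, 1, 1, 3 and 3 held them. The octamer ATGCAAAT, to which the Pou2af1 protein is recruited by its partner factors, was in 0 of the 5 windows and in 1.74% of all windows. These matches describe the letters in the windows and are not evidence of binding.

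The 9 genes were low in untreated tissue, and the median of their summed level was higher in all 3 groups of BBN tissue. Their summed level was 7.65 to 36.6 CPM in U (median 15.5) and 8.72, 9.62 and 35.2 CPM in the 3 B libraries. It was 50.8 to 328 CPM in UN (median 76.2), so every UN library was above every U library. UT ran from 16.1 to 807 CPM (median 299), and BB from 5.45 to 173 CPM (median 68.2). UT and BB thus overlapped their untreated groups at the lower end. The 4 highest libraries of all were UT 8 (807 CPM), UT 6 (798 CPM), UT 7 (543 CPM) and UT 9 (448 CPM). UT 1, UT 10, UT 2 and UT 4 had 67.5, 29.1, 29.0 and 16.1 CPM.

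**Figure D1:**
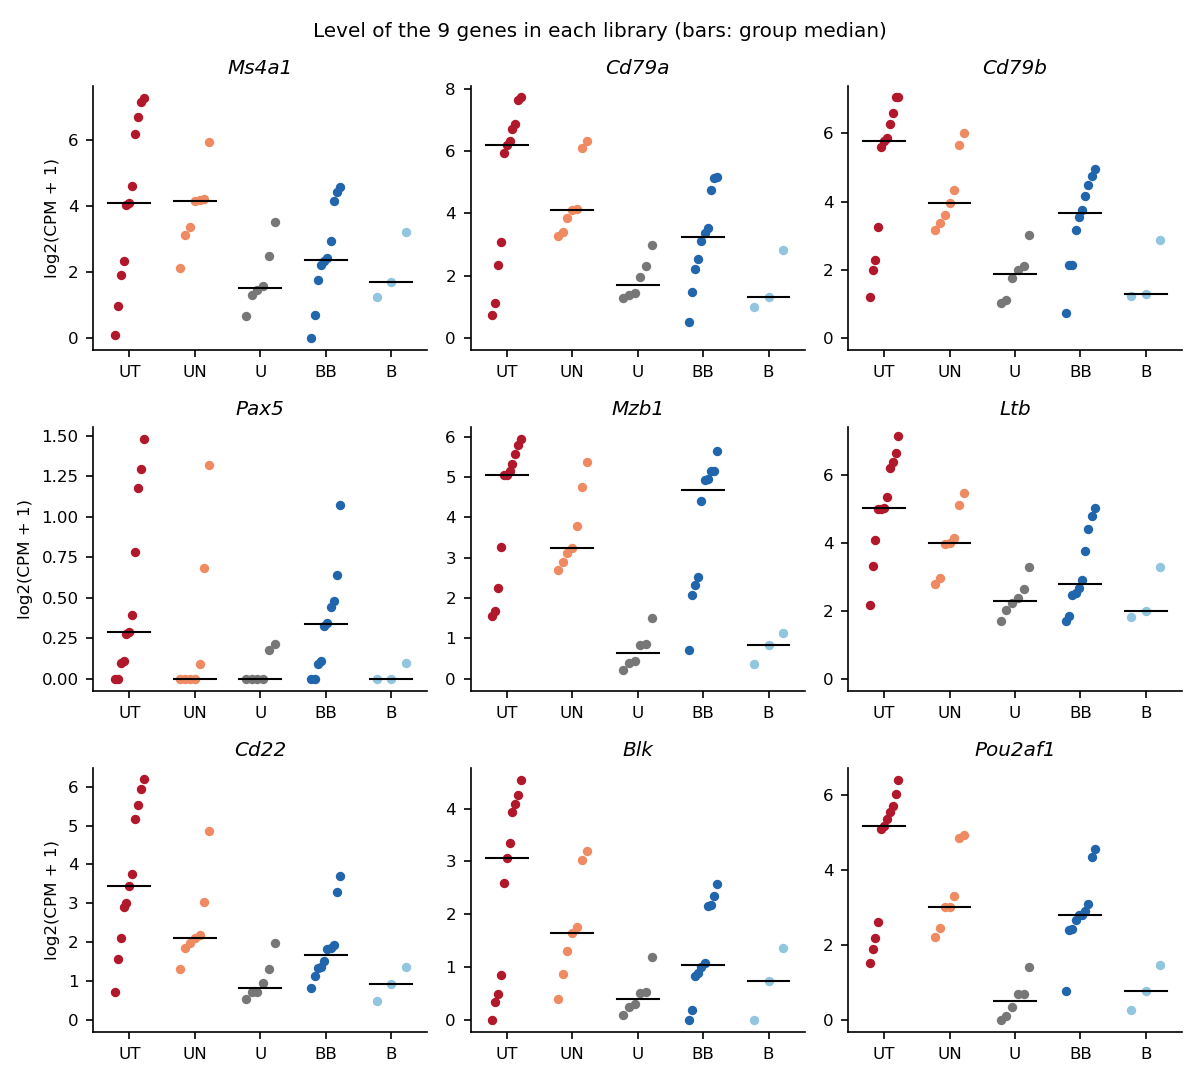
Level of each of the 9 genes in 37 libraries, as log2(CPM + 1), in UT (n = 11), UN (n = 7), U (n = 6), BB (n = 10) and B (n = 3). Each point is a library, sorted by level within its group, and bars are group medians; UT spreads from the level of U to the highest values, and Mzb1 and Pou2af1 are higher in every UT and UN library than in every U library.

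Cd79a and Cd79b encode the signaling chains of the B cell receptor. Cd79a was 1.43 to 6.97 CPM in U (median 2.28), 8.59 to 79.5 CPM in UN (median 16.1) and 0.648 to 210 CPM in UT (median 71.7). In bladders it was 0.999, 1.46 and 6.02 CPM in B and 0.432 to 35.1 CPM in BB (median 8.39). Every UN library was above every U library, whereas 8 of 11 UT libraries were. Cd79b followed the same order, at 1.02 to 7.13 CPM in U, 7.93 to 63.6 CPM in UN, 1.30 to 134 CPM in UT, 0.649 to 29.8 CPM in BB and 1.46, 1.33 and 6.26 CPM in B. Over all 37 libraries the 2 genes had a Spearman rho of 0.97 with each other, the highest of the 36 pairs of members.

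Ms4a1 encodes the B cell surface protein CD20, and Cd22 an inhibitory receptor that dampens signaling by the B cell receptor. Ms4a1 was 0.574 to 10.4 CPM in U (median 1.85), 3.37 to 59.8 CPM in UN (median 16.8) and 0.072 to 152 CPM in UT (median 15.9). Although its UT and UN medians were close, 4 UT libraries (UT 6, UT 8, UT 7 and UT 9, at 152, 139, 101 and 70.3 CPM) were above every UN library. Ms4a1 had no count in BB 10 and reached 22.9 CPM in BB 9, with a BB median of 4.13 CPM, and was 1.33, 2.23 and 8.12 CPM in B. Cd22 was 0.456 to 2.93 CPM in U, 1.48 to 28.2 CPM in UN, 0.636 to 72.4 CPM in UT, 0.767 to 12.1 CPM in BB and 0.906, 0.400 and 1.56 CPM in B. Cd22 did not follow the other B cell genes in UT 2, which had 7.07 CPM of Cd22 with 0.072 CPM of Ms4a1 and 0.648 CPM of Cd79a. The Cd22 value was fractional in 17 of 37 libraries, that of Ltb in 13 and that of Cd79a in 10, so part of their reads may be shared with other sequences.

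Blk encodes a Src family kinase of the B lineage. Its level was 0.0651 to 1.28 CPM in U (median 0.324), 0.321 to 8.20 CPM in UN (median 2.14), 0 to 22.3 CPM in UT (median 7.32), 0 to 4.97 CPM in BB (median 1.05) and 0, 0.666 and 1.56 CPM in B. UT 2 and BB 10 were the libraries at 0 in the BBN groups. Pax5 encodes the transcription factor that sets B cell identity, and it was close to the detection limit everywhere. It had 89.5 counts in all of UT, where 9 of 11 libraries had any, 17 counts in 3 of 7 UN libraries, 5.0 counts in 2 of 6 U libraries, 26.0 counts in 8 of 10 BB libraries and 1.0 count in B. Pax5 did not pass the filter on low counts and is not among the 8 genes tested.

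Pou2af1 encodes a coactivator of octamer-binding factors in B cells and plasma cells, and Mzb1 a chaperone of the endoplasmic reticulum that takes part in antibody secretion. Pou2af1 was 0 to 1.65 CPM in U (median 0.438), 3.67 to 29.6 CPM in UN (median 7.11), 1.87 to 84.3 CPM in UT (median 35.5), 0.721 to 22.9 CPM in BB (median 6.0) and 0.200, 0.697 and 1.75 CPM in B. Mzb1 was 0.154 to 1.86 CPM in U (median 0.565), 5.46 to 40.3 CPM in UN (median 8.50), 1.94 to 60.8 CPM in UT (median 32.2), 0.649 to 48.7 CPM in BB (median 24.8) and 0.279, 0.799 and 1.20 CPM in B. These were the 2 genes for which every UT library and every UN library was above every U library. For UT against U, 14.9% of all genes tested had no overlap in this direction. BB 10 was the single BBN bladder that overlapped B in either gene. Ltb, a membrane cytokine that shapes lymphoid tissue, was 2.23 to 8.92 CPM in U, 5.90 to 43.3 CPM in UN, 3.5 to 141 CPM in UT, 2.23 to 31.7 CPM in BB and 2.51, 3.0 and 8.73 CPM in B. For Ltb, 10 of 11 UT libraries were above every U library.

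Levels were also divided by gene length, taken as all annotated exons of a gene together. Transcripts present in these samples may be shorter, which was not examined, so the orders below are approximate. In UT the mean level was 52.9 CPM per kb for Cd79a, 39.1 for Cd79b, 33.7 for Ltb, 23.7 for Mzb1, 13.2 for Pou2af1, 7.70 for Ms4a1, 4.60 for Cd22, 3.16 for Blk and 0.0628 for Pax5. In BB Mzb1 was first at 17.3 CPM per kb, before Cd79b at 9.30, Cd79a at 9.07 and Ltb at 7.78. In U Ltb was first at 3.02 CPM per kb, with Cd79a at 2.11 and Mzb1 at 0.586. Whether these orders differ beyond the spread between libraries was not tested. They are orders of means, and in UT Ms4a1 had a mean of 47.7 CPM against a median of 15.9 CPM.

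The comparison of UT with U asks how the cancer side differs from ureter without BBN. All 8 genes tested were called higher in UT by edgeR (FDR under 0.1 and at least 2-fold), where 18.7% of 15658 genes were called higher. Log2 fold changes were 5.61 for Pou2af1 (SE 0.96, edgeR adjusted p = 0.000152), 4.99 for Mzb1 (SE 0.81, adjusted p = 0.000106), 4.32 for Cd79a (SE 1.01, adjusted p = 0.00175) and 3.98 for Cd22 (SE 0.91, adjusted p = 0.00146). The remaining genes were Blk at 3.96, Cd79b at 3.90, Ms4a1 at 3.47 and Ltb at 3.16, with SE from 0.65 to 1.08. The median over the 8 genes was 3.97, against 0.11 over all genes tested. The 6 U libraries come from 3 mice, and p-values treat them as separate. With the libraries of a mouse and group summed, 7 of the 9 genes were called and Ms4a1 was not (3.54, edgeR adjusted p = 0.111), and with mouse as a random effect (limma) 5 were called.

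UN against U asks whether ureter exposed to BBN but without cancer differs from untreated ureter. Of the 8 genes tested, 7 were called higher in UN by edgeR, where 12.5% of genes were called higher. The largest differences were again those of Pou2af1 (log2 fold change 4.43, SE 0.94, adjusted p = 0.00411) and Mzb1 (4.26, SE 0.81, adjusted p = 0.00213), followed by Cd79a (3.20, SE 0.99, adjusted p = 0.0345) and Cd79b (2.97, SE 0.87, adjusted p = 0.0262). Blk was at 2.78, Cd22 at 2.41 and Ltb at 2.05. Ms4a1 was 2.39 (SE 1.07, edgeR adjusted p = 0.137) and was not called. In 4 genes, Cd79a, Cd79b, Mzb1 and Pou2af1, every UN library was above every U library, which was the case for 2.09% of all genes. These calls rest on taking the U libraries as independent. With the libraries of a mouse and group summed, so that U is 3 samples, 0 of the 9 genes were called by edgeR (Mzb1 4.24, adjusted p = 0.101, and Pou2af1 4.41, adjusted p = 0.128), while edgeR called 157 of all 16322 genes and 2555 passed an unadjusted p of 0.05. With mouse as a random effect (limma) 2 were called. Calls of Blk and Cd22 were also lost when any of UN 3, UN 7, U 1R, U 1L, U 2L, U 3R or U 3L was left out, and that of Blk without UN 6 as well, which leaves 5 to 8 calls without 1 library.

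**Figure D2:**
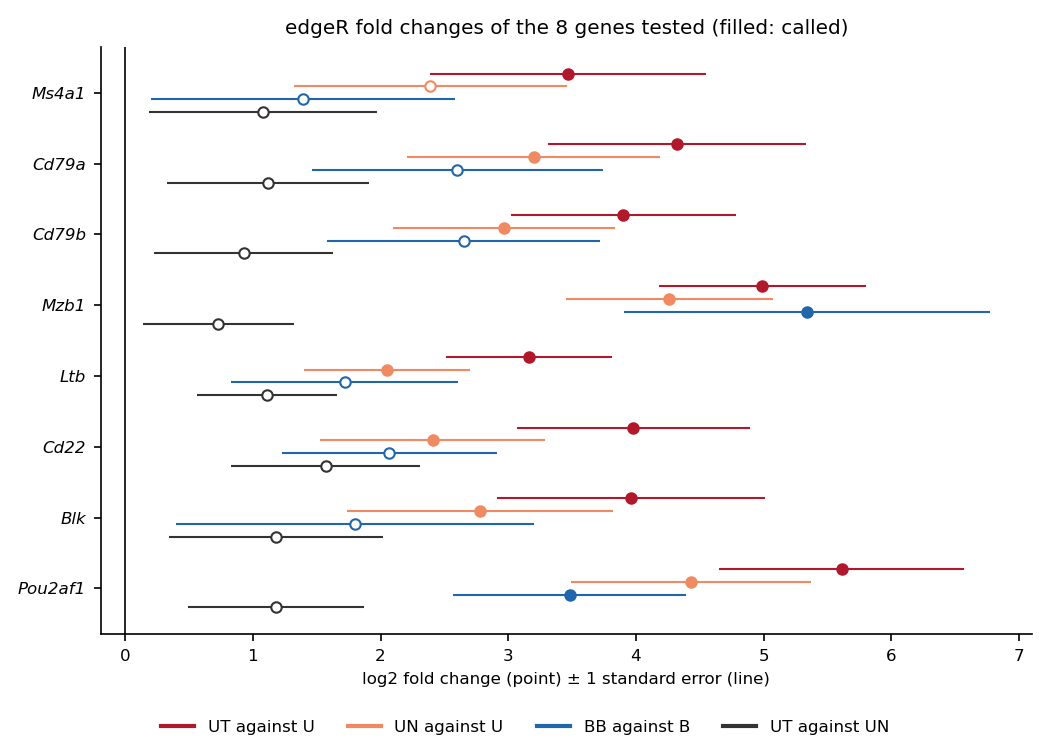
Log2 fold changes (points) with 1 standard error (lines) of the 8 genes tested by edgeR, for UT against U, UN against U, BB against B and UT against UN. Filled points are called (FDR under 0.1 and at least 2-fold); all 8 are filled for UT against U, 7 for UN against U, 2 for BB against B and 0 for UT against UN.

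UT against UN compares the cancer side with the noncancer side. The 8 genes had positive log2 fold changes, from 0.73 for Mzb1 to 1.57 for Cd22, but 0 were called by edgeR, where 5.52% of genes were called in either direction. Cd22 was the single gene with an unadjusted p under 0.05 (SE 0.74, edgeR adjusted p = 0.186). DESeq2 called 1 gene (Cd22, log2 fold change 1.61), limma-trend called 0, and edgeR called Cd22 when UN 7 was left out (2.33). Intervals of 2 standard errors ran from 0.09 to 3.06 for Cd22 and from 0.02 to 2.21 for Ltb, and those of the other 6 genes included 0, as from -0.70 to 2.86 for Ms4a1 and from -0.46 to 1.92 for Mzb1. The differences depended on the method. With mouse as a random effect (limma), Cd22 was 1.02, Ltb 0.87, Pou2af1 0.53, Blk 0.28, Mzb1 0.15, Cd79b 0.12 and Cd79a 0, and Ms4a1 turned to -0.24, as it did by limma-trend (-0.26). Adding the mouse as a block (edgeR) gave 0 calls.

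The 7 mice with both sides divided in this comparison. In mice 7 and 9 all 9 genes were higher on the cancer side, and in mouse 6, 8 of 9 were. In mouse 2, 2 of 9 were, and in mouse 4, 1 was. Mice 1 and 3 lay between, with 4 and 6 of 9. The gene in mouse 4, and 1 of the 2 in mouse 2, was Pax5, at 0.0794 and 0.072 CPM in UT against 0 in UN. Cd79a in mouse 6 was 210 CPM in UT and 13.5 CPM in UN, and in mouse 9 it was 102 and 9.43 CPM. In mouse 2 it was 0.648 CPM in UT and 16.1 CPM in UN, and in mouse 4 it was 1.19 and 16.7 CPM. Mice 3 and 7 were high on both sides, at 78.5 and 79.5 CPM in mouse 3 and 115 and 67.9 CPM in mouse 7. Over the 7 mice, UT was the higher side in 6 for Cd22, in 5 for Ms4a1, Blk and Pax5, in 4 for Mzb1, Ltb and Pou2af1, and in 3 for Cd79a and Cd79b. The Pax5 tally stands on few reads, with 0.072, 0.0794 and 0.22 CPM in UT 2, UT 4 and UT 9 against 0 in UN. UT 2 and UT 4 were also the UT libraries with the lowest summed level of adipocyte genes, at 118 and 240 CPM against a UT median of 14700 CPM. UT 4 and UT 10 had the highest levels of kidney tubule genes, at 2690 and 12.1 CPM. Over the 11 UT libraries, several of them from mice without a UN library and 2 from mouse 5, Spearman rho of the mean level of the 9 genes was 0.92 with summed T cell genes, 0.91 with genes common to all leukocytes, 0.76 with adipocyte genes and -0.81 with kidney tubule genes, as a description. The part of any of these in the division between mice was not tested. Without UT 4, 0 of 8 genes were called in UT against UN and 8 of 8 in UT against U.

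**Figure D3:**
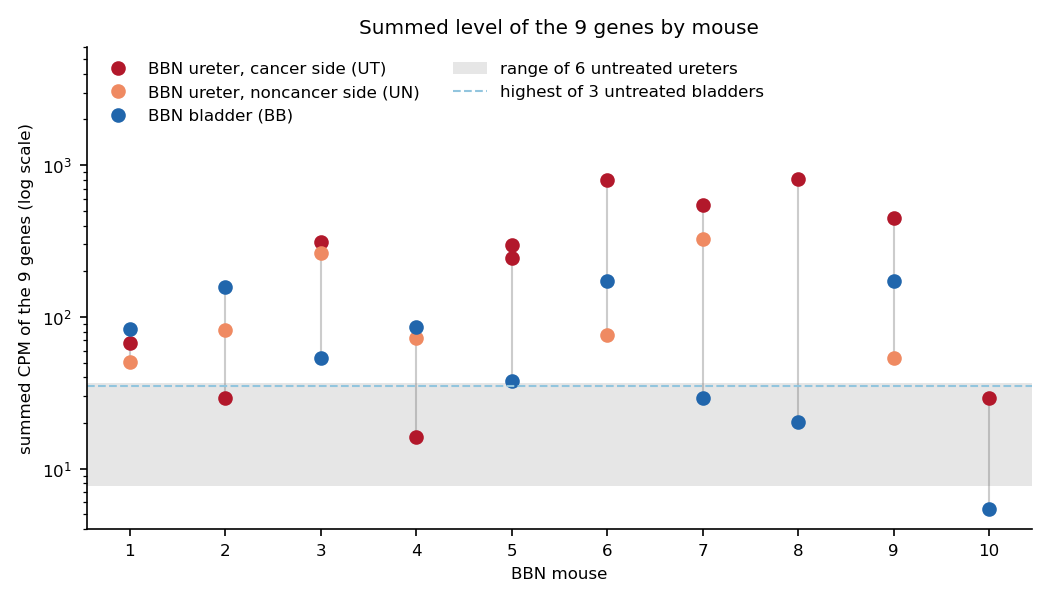
Summed CPM of the 9 genes (log axis) in the UT, UN and BB libraries of each of the 10 BBN mice, with the range of the 6 untreated ureters (grey, 7.65 to 36.6 CPM) and the highest untreated bladder (dashed, 35.2 CPM). Lines join the libraries of a mouse; UT is far above UN in mice 6 and 9 and below it in mice 2 and 4, and mouse 10 has 29.1 CPM in UT and 5.45 CPM in BB.

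BB against B asks what BBN changed in the bladder. Mzb1 (log2 fold change 5.34, SE 1.43, edgeR adjusted p = 0.0276) and Pou2af1 (3.48, SE 0.91, adjusted p = 0.0244) were called higher in BB, 2 of the 8 genes tested where 7.61% of 18050 genes were called higher. Cd79b at 2.65 (SE 1.07), Cd79a at 2.60 (SE 1.14) and Cd22 at 2.07 (SE 0.84) had an unadjusted p under 0.05 and an edgeR adjusted p of 0.132 to 0.152. Blk was at 1.80, Ltb at 1.72 and Ms4a1 at 1.39. Mzb1 and Pou2af1 were above every B library in 9 of 10 BBN bladders, and Ms4a1 in 3 of 10. BB 1, BB 3 and BB 4, the shallowest bladder libraries, were also those with the most degraded RNA. Without them 2 genes were called, and with RNA integrity as a covariate 3 were, Cd22 being added. With 3 untreated bladders the count was not stable. It was 0 without B 1 or B 2, 1 without B 3 (Pou2af1), 5 without BB 10, 5 with mice 1 to 7 alone and 6 by DESeq2.

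The balance of Mzb1, high in plasma cells, to Ms4a1, which plasma cells lose, varied between groups and between UT libraries. The ratio of Mzb1 to Ms4a1 in CPM was 0.105 to 0.556 in U and 0.125, 0.148 and 0.600 in B, and it was 0.375 to 3.81 in UN (median 0.709). It was 0.923 to 8.71 in the 9 BBN bladders with any Ms4a1 (median 2.92), and 0.209 to 27 in UT (median 2.0). UT 6, UT 7, UT 8 and UT 9 had ratios of 0.209, 0.543, 0.437 and 0.459, and UT 3, UT 5R and UT 5L had 2.0, 2.46 and 2.28. The highest UT ratio, in UT 2, stands on 0.072 CPM of Ms4a1. Ratios in untreated tissue stand on few counts of Mzb1, 2 to 35 in U and 4 to 20 in B. That of BB 8 (7.78) stands on 9 counts of Ms4a1. Jchain, which joins the units of polymeric antibody and marks plasma cells, was read beside them. Its level was 3.0 to 12.5 CPM in B, 6.01 to 40.7 CPM in U, 146 to 700 CPM in UN (median 244), 13.6 to 1180 CPM in BB (median 739) and 27.9 to 2140 CPM in UT (median 727). Jchain was 1440 to 2140 CPM in UT 3, UT 5R and UT 5L and 298, 727, 1020 and 743 CPM in UT 6, UT 7, UT 8 and UT 9, the 4 libraries with the most Ms4a1. Differences in these ratios between groups were not tested.

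**Figure D4:**
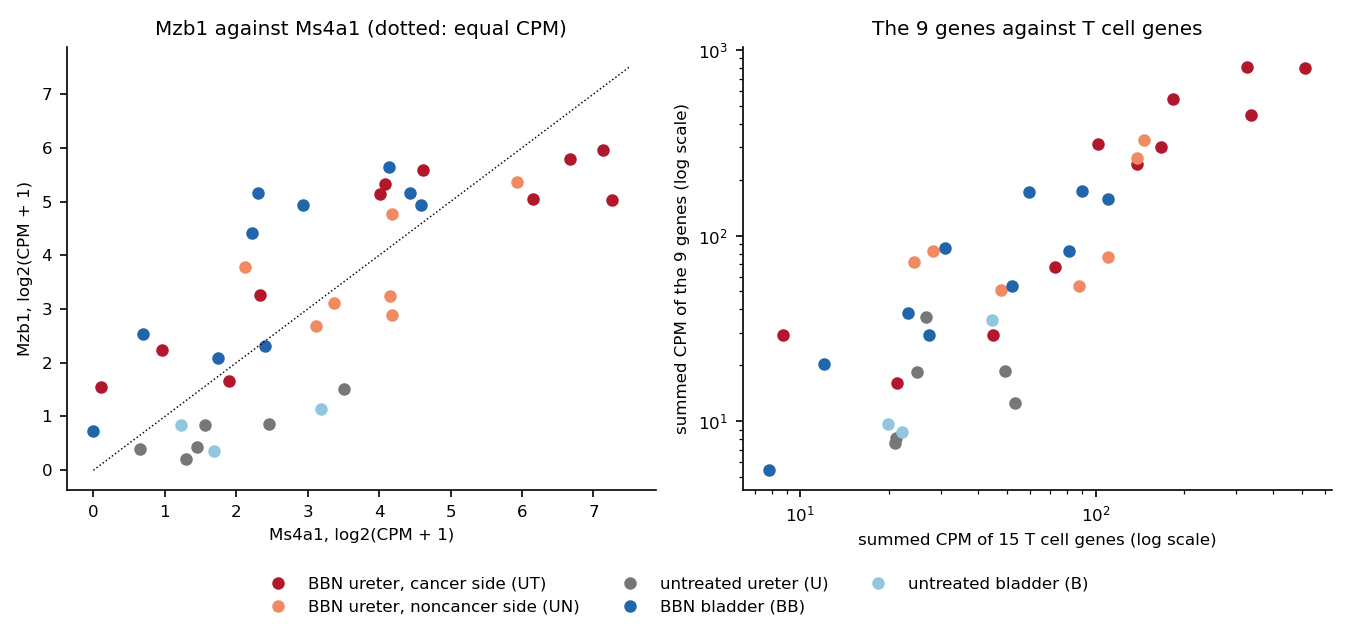
Left, Mzb1 against Ms4a1 as log2(CPM + 1) in 37 libraries, with a dotted line at equal CPM. Right, summed CPM of the 9 genes against summed CPM of 15 T cell genes, both on log axes. Points are libraries colored by group; untreated libraries and the 4 highest UT libraries are below the dotted line, and UT 6 has the highest T cell sum and the second highest sum of the 9 genes.

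Between tissues, 0 of the 8 genes were called in U against B, UN against BB or the interaction of BBN and tissue, (UN - U) - (BB - B), by edgeR, where 14.9%, 16.9% and 2.06% of genes were called in either direction. At an unadjusted p under 0.05, 0 of the 8 passed in each of the 3 comparisons, and DESeq2 and limma-trend called 0. Log2 fold changes of U against B were -0.41 to 0.65. In UN against BB, 7 genes were higher in UN by 0.58 (Blk) to 1.16 (Ms4a1), while Mzb1 was at -0.77, with an interval of 2 standard errors from -2.06 to 0.52. With mouse as a random effect, 2 genes were called in UN against BB. The interaction was 0.99 for Blk (SE 1.39) and -1.05 for Mzb1 (SE 1.23).

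Other genes of the B lineage were read from lists. Of 27 other B cell genes tested in UT against U, 24 were called higher and 1 lower by edgeR, with a median log2 fold change of 2.63. Shares of all genes called, given above for each comparison, hold for this and the following lists. In the comparisons with untreated tissue of the same organ they are shares called higher, and none is given for genes called lower. Fcmr, the receptor for IgM, was 4.95 (SE 0.95, adjusted p = 0.000358), Fcer2a, the low-affinity IgE receptor CD23, was 4.84 (SE 1.27, adjusted p = 0.00396), and Fcrl1 and the transcription factor Spib were 4.66 and 4.24. The gene called lower was Ebf1 (-1.59, named here after its value was seen), which adipocytes also express. In UN against U, 11 of the 27 were called higher (12.5% of all genes), in the fit that takes the U libraries as independent. With the libraries of each mouse summed, the 7 genes of the 9 called there lost their calls, and the lists were not refitted. The same limit holds for the UN against U calls of every list below. The 11 were led by Fcrl1 (3.73), Fcmr (3.34), Fcrla (3.17) and Tnfrsf13c (2.79), the receptor for the survival factor BAFF. In BB against B, 2 of 27 were called, Vpreb3 (5.32) and Blnk (1.29), a share near the 7.61% of all genes. In UT against UN 1 of 27 was called, where 5.52% of all genes were. This was Blnk, a B cell adaptor, at 1.10 (SE 0.24, edgeR adjusted p = 0.0728). Blnk did not follow the 9 genes across libraries, with 30.2 to 68.5 CPM in UT and 24.2 to 29.8 CPM in B.

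Of 17 plasma cell genes tested, 9 were called higher and 1, the chemokine receptor Ccr10, lower in UT than U. Jchain led at 5.25 (SE 0.91, edgeR adjusted p = 0.000165), with Tnfrsf13b, a receptor for BAFF and APRIL, at 2.85 and Prdm1, the transcription factor of plasma cell fate, at 2.13. In UN against U 5 were called, with Jchain at 4.53 (SE 0.89, adjusted p = 0.0027), and in BB against B 2 of 16, Jchain at 6.57 (SE 1.47, adjusted p = 0.0101) and Derl3 at 2.80. In UT against UN 0 were called higher and 1, Ccr10, lower, at low means of 0.317 CPM in UT and 0.788 CPM in UN. Of 7 germinal centre genes tested, 4 were called higher in UT than U, 3 in UN than U, 1 in BB than B and 0 in UT than UN. Cxcr4, a chemokine receptor, was 2.98 on the log2 scale in UT against U.

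Of 19 genes of B cell survival and homing tested, 14 were called higher in UT than U, 14 in UN than U, 5 in BB than B and 0 in UT than UN. Cxcl13, the chemokine that draws B cells into follicles, was 3.31 to 25.2 CPM in U, 14.4 to 637 CPM in UN, 1.94 to 563 CPM in UT, 5.48 to 166 CPM in BB and 2.86 to 12.9 CPM in B. It was called in all 3 comparisons with untreated tissue, at 4.54 in UT, 5.0 in UN and 3.78 in BB. Glycam1, a ligand of L-selectin on high endothelial venules, was at most 0.319 CPM in U and 0.139 CPM in B. It reached 160 CPM in UT 9, 109 CPM in UT 7, 74.6 CPM in UT 6 and 57.7 CPM in UN 7, with a UN median of 0.524 CPM and a BB maximum of 9.32 CPM. Ccl20, which attracts cells bearing Ccr6, was at 0 in every U and B library and reached 3.79 CPM in UT and 4.07 CPM in BB. Pigr, the epithelial carrier of polymeric antibody, was 1.80 to 3.21 CPM in U and 26.6 to 471 CPM in UT.

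Markers of other immune cells were read in the same comparisons. T cell genes were called higher in 14 of 15 in UT against U, where 18.7% of all genes were, in 3 of 15 in UN against U (12.5%), in 1 of 15 in BB against B (7.61%) and in 0 of 15 in UT against UN. The counts in UN against U and BB against B are near these shares. Summed T cell levels were 20.9 to 53.4 CPM in U, 24.2 to 146 CPM in UN and 8.73 to 513 CPM in UT, lowest in UT 10 and highest in UT 6. Genes common to all leukocytes were called in 10 of 10, 8 of 10, 2 of 10 and 0 of 10, and macrophage genes in 8 of 12, 8 of 12, 3 of 12 and 0 of 12. Cd79a was also set against a general marker of leukocytes. The ratio of Cd79a to Ptprc (CD45) was 0.0350 to 0.190 in U, 0.131 to 1.82 in UN, 0.0132 to 1.59 in UT, 0.0524 to 0.192 in B and 0.0480 to 2.46 in BB. These ratios were not tested. Genes of plasmacytoid dendritic cells, which also express some of the 9 genes, were called higher in 6 of 9 in UT against U, 3 of 9 in UN against U, 2 of 10 in BB against B and 2 of 9 in UT against UN. The last were Klk1 (4.39) and Runx2 (1.15), which also led in UT against U (6.40 and 3.5) and are expressed in kidney and in bone as well. In UT against U, Pacsin1 (2.84), Ccr9 (1.41), Irf8 (1.32) and Bst2 (1.11) were called too, and Siglech (-0.19), Tcf4 (-0.21) and Ly6c2 (0.16) were not. The part of these cells in the levels of the 9 genes was not tested.

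The members varied together over the 37 libraries. Spearman rho of log2(CPM + 1) was 0.57 to 0.97 over the 36 pairs (median 0.81), where libraries share mice and the groups themselves differ. The pairs with Pax5, the gene with the fewest counts, made up the lowest 8. Ms4a1 was nearer to Blk and Cd79a (0.94 each) than to Pou2af1 (0.76), and Mzb1 was nearer to Cd79b (0.92) than to Ms4a1 (0.78). The 16793 other genes with a mean of at least 0.5 CPM were set against the mean z-score of the 9 genes, which weighs each gene alike. Those most alike were Fcrl1 (rho 0.97), Fcrla (0.96), Fcmr (0.93), Izumo1r, Slamf6 and Cxcr5 (0.92 each), and Spib, Xlr4a, Ptprcap and Cytip (0.91 each).

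Positions are from GENCODE vM21 on GRCm38, where all 9 are protein-coding genes. Cd79a (chr7:24897381-24902197, plus strand) and Cd22 (chr7:30865402-30880342, minus strand) share chromosome 7. Pou2af1 is at chr9:51213708-51240080 on the plus strand, Ms4a1 at chr19:11249675-11266241 and Cd79b at chr11:106311341-106314762, both on the minus strand. Ltb is at chr17:35194439-35196320 on the plus strand, and Mzb1 at chr18:35647267-35649367, Blk at chr14:63372836-63417037 and Pax5 at chr4:44524757-44710487 on the minus strand. Genes of either strand overlap Ms4a1, Pax5, Mzb1, Ltb, Cd22 and Pou2af1, and no source used here says that reads were counted by strand, so reads of overlapping genes may not have been told apart.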

How the data were processed

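RNA was sequenced from 37 libraries. The authors deposited estimated counts per gene symbol without normalization (GRCm38/mm10; the submitters' processing notes name TopHat2 2.1.1 and Cuffdiff 2.2.1 without a role), and 21.1% of nonzero values were fractional. Values were rounded and tested with edgeR 4.0.16 in R 4.3.3 (filterByExpr, TMM, quasi-likelihood F-test, Benjamini-Hochberg over all genes tested). A gene was called at an FDR under 0.1 when it also changed by 2-fold or more. UT, UN and U shared a fit, BB and B another, and U, B, UN and BB were fitted together for the comparisons of tissues. All 11 UT libraries were used; the study's comparisons used 10. CPM were computed from the deposited totals, and 0 columns were left without a sample. Levels, ratios and correlations used Python 3.11.15.

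Named genes were the 9 members, up to 4 called genes per list and comparison by size, and the 10 genes most alike. Other genes are named as background, as ratio partners or to complete a list, with their values already known. The members and lists were chosen with earlier results of these data known, and the motif letters after most results were seen. The fits were tested on simulated data with known changes put in. Fewer of these were recovered in BB against B and in the interaction than in UT against U or UT against UN.

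Same-numbered UT, UN and BB libraries come from 1 mouse. Their deviations from group means had a median correlation of -0.0094 over 7 UT and UN pairs, -0.0833 over 7 UN and BB pairs and 0.111 over 11 UT and BB pairs, against -0.0157, 0.128 and -0.00581 between mice. No source says that the 2 ureters of an untreated mouse are independent, so p-values over U measure the spread between libraries. Within a group, 2 libraries differed by a chi-square per degree of freedom of at least 7.37, so none was counted as a copy. Alternatives were other normalizations, filters, tools and sample sets, RNA integrity as a covariate, and leaving out each library.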

Additional observations from a re-analysis of the deposited data

Results flagged for a closer look

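Among the 9 genes and their sum, no library stood apart from the others of UN, U or BB by the gap to its nearest neighbor. UT, with 11 libraries, and B, with 3, were not examined in this way. Over 69 sets of values in UN, U and BB, which also took in library totals and marker lists, 5 had such a library, where chance alone gives about 1 in 20. The total of UN 6 was 4.68 M counts (M, mega), with 10.9 M the next lowest in UN. The summed level of urothelium genes was low in UN 2, at 5.19 on the log2(CPM + 1) scale with 10.3 the next, and in U 2L, at 10.9 with 11.6 the next. U 3L was high in kidney tubule genes, at 3.57 with 1.31 the next, and in adipocyte genes, at 16.2 with 15.8 the next. Their part in the levels of the 9 genes was not tested.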

How the results depend on the processing

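Counts of the 9 genes called kept within 1.5 times the reported count under most alternatives. For UT against U (8) they were 5 to 9 over 12 alternatives, with 5 when the mouse was a random effect. For UN against U (7) they were 0 to 8, with 0 when the libraries of a mouse and group were summed and 2 with the random effect. For BB against B (2) they were 2 to 6, with 6 by DESeq2 and 5 with mice 1 to 7. For UT against UN (0) DESeq2 gave 1, and for UN against BB (0) the random effect gave 2. The causes were not tested. Leaving out 1 library gave 8 in UT against U, 5 to 8 in UN against U, 0 to 5 in BB against B, 0 to 1 in UT against UN, and 0 in U against B, UN against BB and the interaction. Ms4a1 reversed in UT against UN, at -0.26 by limma-trend and -0.24 with the random effect. With the replicate block (the mouse), 0 genes were called in UT against UN, U against B, UN against BB and the interaction, as without it. A fit of all 37 libraries at once was added after seeing the data and gave 9, 6, 3 and 0 calls in UT against U, UN against U, BB against B and UT against UN.

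Low counts kept Pax5 out of the tests as reported, though not out of every alternative, and 3 untreated mice limit every comparison with untreated tissue. Without the shallowest libraries (UN 6, BB 1, BB 3 and BB 4), 8, 6, 2 and 0 genes were called in UT against U, UN against U, BB against B and UT against UN.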
